A study of Mus musculus with 6 samples.

Results

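Rpl39 with Rpl39l, Rpl10 with Rpl10l, Rpl22 with Rpl22l1, Rpl3 with Rpl3l and Rps27 with Rps27l are 5 pairs of mouse genes for the same or a closely related ribosomal protein. They were taken by symbol from a table of ribosome footprint density in round spermatids, the haploid germ cells that follow meiosis. Of the 10 symbols, 9 had a row among the 22770 rows, and the widely expressed form Rpl39 is not analysed here, so 4 pairs could be compared partner with partner. Ribosome profiling sequences the RNA pieces that ribosomes protect from nuclease, and the values are FPKM, which are scaled for transcript length and for the mapped fragments of the library. There were 3 wild-type (WT) libraries and 3 libraries of the genotype labelled Eif5a SKO. Both groups are round spermatids from testis, and they differ by genotype alone in the labels. The labels do not give the strain, the age, what SKO stands for, or the promoter of any Cre driver. The series design text, which describes an accessibility assay, gives 3 mice per group with sorted cells. No label ties a footprint library to its own animal, so p-values measure the spread between these libraries, part of which may be technical. Eif5a, whose product helps ribosomes through difficult stretches of coding sequence, had 34.2, 48.8 and 61.9 FPKM in WT and 1.84, 1.93 and 2.99 FPKM in SKO, in the direction of its label.

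Each ribosome carries one copy of most ribosomal proteins, and a paralogue can take the place of its partner in the particle. During meiosis the X chromosome of male germ cells is silenced, and it stays largely repressed in round spermatids. Rpl10 and Rpl39 are X-linked (GRCm38), whereas their paralogues Rpl10l on chromosome 12 and Rpl39l on chromosome 16 are autosomal genes known for expression in the testis. RPL39 and RPL39L line the exit tunnel through which the new protein leaves the large subunit, and RPL10 and RPL10L sit near the catalytic centre of the large subunit. The other 3 pairs are autosomal on both sides. RPL22 is a large-subunit protein that is known to repress expression of its paralogue Rpl22l1. RPL3 lies close to the peptidyl transferase centre, and its paralogue Rpl3l is known as a form of heart and skeletal muscle rather than of testis. RPS27 belongs to the small subunit, and Rps27l is known as a target of p53.

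The start regions of the genes are shown because messenger RNAs of ribosomal proteins are known for an unbroken run of pyrimidines (C or T) at their first bases, which controls their translation. RefSeq promoter windows of GRCm38.p6 were searched on the transcribed strand, from 50 bases before to 50 bases after the annotated start. They held 9 of the 10 genes, all but Rpl3, and 7 are shown: the X-linked genes with their testis forms, and the denser genes of the autosomal pairs with Rps27l. Each line gives 30 bases from 5′ to 3′ around the longest run of C or T, which is in capitals, and for genes with 2 windows the window with the longer run was used.
Rpl39, chrX:37085173-37085202, minus strand: gttcttccggtcccggCCTTTCTCTTCTCC
Rpl39l, chr16:10170191-10170220, plus strand: aacacccactgCCTCTCCCTagctcccagg
Rpl10, chrX:74270836-74270865, plus strand: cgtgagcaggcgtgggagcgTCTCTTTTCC
Rpl10l, chr12:66284422-66284451, minus strand: ctatgaTTCCCgcaaggcttgatgggtaac
Rpl22l1, chr3:28805499-28805528, plus strand: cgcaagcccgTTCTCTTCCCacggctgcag
Rps27, chr3:90213632-90213661, minus strand: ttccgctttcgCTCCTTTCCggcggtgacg
Rps27l, chr9:66946053-66946082, plus strand: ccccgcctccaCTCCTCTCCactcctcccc

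A run of at least 8 pyrimidines was present in 8 of the 9 genes with a window. The same holds for 83.3% of 54 other cytosolic ribosomal protein genes with a window and for 39.3% of all 27025 genes with one. Rpl10l was the member without such a run, with a longest run of 5 bases. The run of its X-linked partner Rpl10 had at least 10 bases, and that of Rpl39 had at least 14 bases against 9 in Rpl39l. The Rpl10 and Rpl39 runs reach the last base of the window and may go on beyond it. In Rpl39 and Rpl10 the run begins at bases 37 and 41, counting the annotated start as base 1, and in Rpl39l it begins 26 bases before the start. For Rpl39l and Rps27l the start of the window lies inside the span that RefSeq gives for the gene, so other starts are annotated upstream. The search describes letters in a window and does not show where transcripts start in spermatids.

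Rpl39l carried the densest footprints of the 9 genes in both genotypes. It had 115, 195 and 206 FPKM in WT and 215, 412 and 362 FPKM in SKO. Among 83 ribosomal protein genes and paralogues with a row it ranked between 1 and 3 in every library, and 98.9% to 99.5% of the 11107 tested protein-coding rows lay below it. With its X-linked partner not analysed, the share of the pair that comes from Rpl39l is not given here.

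The levels of the 9 genes spanned more than 2 orders of magnitude, in an order that was similar in the 2 genotypes. In WT, Rpl39l (172 ± 49.6 FPKM, SD, n = 3, as for all group values below) was followed by Rps27, Rpl22l1, Rpl10l, Rpl22, Rpl3 and Rps27l, and these 6 means ran from 88.5 down to 21.9 FPKM. Neighbours within that stretch had overlapping ranges, although within each WT library the same neighbour was always the higher one. Rpl10 at 3.14 ± 0.629 FPKM and Rpl3l at 0.751 ± 0.366 FPKM lay below the rest without overlap. In SKO the order was Rpl39l, Rpl22l1, Rps27, Rpl22, Rpl10l, Rps27l, Rpl3, Rpl10 and Rpl3l. There the Rpl22l1 and Rps27 means, 103 and 99.3 FPKM, and the Rpl10l and Rps27l means, 39.8 and 34.7 FPKM, kept their order in only 2 of 3 libraries.

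**Figure D1:**
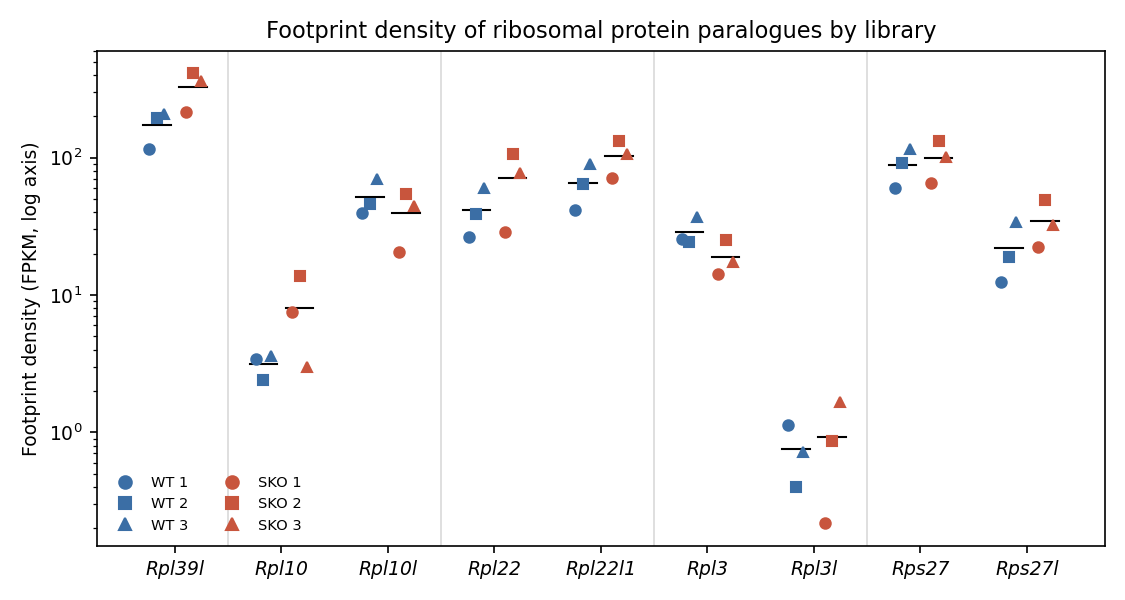
Footprint density (FPKM, log axis) of the 9 genes in each of the 6 libraries; symbols mark replicates and black lines the group means. Rpl39l lies highest at 115 to 412 FPKM, and Rpl10 and Rpl3l lie lowest in both groups.

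The autosomal Rpl10l exceeded the X-linked Rpl10 in all 6 libraries. Rpl10 had 3.43, 2.42 and 3.57 FPKM in WT and 7.54, 13.7 and 2.96 FPKM in SKO. SKO replicates 1 and 2 lay above all WT libraries, whereas SKO replicate 3 lay within the WT range. Rpl10l had 39.3, 46.0 and 70.1 FPKM in WT and 20.5, 54.7 and 44.2 FPKM in SKO, with overlapping groups. The fold of Rpl10l over Rpl10 was therefore 11.5, 19.0 and 19.6 in WT and 2.72, 3.99 and 14.9 in SKO. On the log2 scale, with 1 FPKM added to each value, the ratio averaged 2.95 ± 1.07 (SD, n = 6). A two-sided exact sign-flip permutation test over the 6 libraries gave p = 0.03125, the smallest value that 6 libraries allow, unadjusted for the 4 pairs compared.

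The balance of this pair was lower in SKO on average, but not beyond the spread. The log2 ratio was 3.64 ± 0.405 in WT and 2.25 ± 1.13 in SKO, a difference of -1.39 (SE 0.69). The two-sided exact permutation test of 3 against 3 gave p = 0.2, unadjusted, where 0.1 is the smallest p such a design can give. SKO replicate 3, at 3.51, stood among the WT values of 3.19, 3.78 and 3.96, and the other SKO libraries stood at 1.33 and 1.92. Without SKO replicate 3 the difference was -2.02, and without SKO replicate 1 it was -0.93. The 2 Rpl10 pseudogenes with a row, Rpl10-ps3 and Rpl10-ps6, had 0.576 to 1.51 FPKM, between 6.99% and 51.0% of Rpl10 in the same library. With them added to Rpl10 the log2 ratio averaged 2.55 over the 6 libraries, and the difference between genotypes was -1.39 again.

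Rpl22l1 exceeded Rpl22 in all 6 libraries by a smaller margin. Rpl22 had 26.4, 39.0 and 60.3 FPKM in WT and 28.7, 107 and 76.9 FPKM in SKO, while Rpl22l1 had 41.3, 64.5 and 90.5 FPKM in WT and 71.6, 132 and 106 FPKM in SKO. The WT folds of Rpl22l1 over Rpl22 lay close together at 1.56, 1.65 and 1.50. In SKO they spread from 1.23 in replicate 2 and 1.38 in replicate 3 to 2.49 in replicate 1. The log2 ratio was 0.66 ± 0.34 over the 6 libraries (exact sign-flip p = 0.03125, unadjusted, n = 6). It was 0.638 ± 0.0669 in WT and 0.683 ± 0.531 in SKO, a difference of 0.05 (SE 0.31, exact permutation p = 1, unadjusted). The sign of that difference rests on SKO replicate 1, without which it was -0.26. A bias tied to a gene, such as from the length used for scaling, would recur in all 6 libraries. The sign-flip test cannot detect such a bias, and its size was not tested.

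Rps27 exceeded Rps27l in all 6 libraries, and this is the pair in which the genotypes did not overlap. Rps27 had 59.8, 90.9 and 115 FPKM in WT and 65.1, 132 and 101 FPKM in SKO. Rps27l had 12.4, 18.9 and 34.3 FPKM in WT and 22.5, 49.1 and 32.5 FPKM in SKO. Rps27 was thus 4.82, 4.80 and 3.35 times as dense as Rps27l in WT and 2.90, 2.68 and 3.10 times in SKO. The log2 ratio of Rps27l over Rps27 was -2.03 ± 0.275 in WT and -1.50 ± 0.0995 in SKO, a difference of 0.53 (SE 0.17). The exact permutation p was 0.1, unadjusted, the smallest the design allows, and 0.267 after Benjamini-Hochberg adjustment over the 4 pairs. The pair is thus not set apart from the others by this test. Over the 6 libraries the sign-flip p was 0.03125, unadjusted. With 1 library left out the difference lay between 0.45 and 0.69.

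The level of Rps27 is uncertain, because reads of near-identical copies may be divided between rows. Rps27rt, which RefSeq lists as a protein-coding gene on chromosome 9 and whose older names include Rps27, had 45.3 to 102 FPKM. Its density was 72.3% to 83.4% of that of Rps27 in every library. Rps27-ps1 had 10.3 to 30.8 FPKM. With the 3 rows summed, the log2 ratio of Rps27l over Rps27 averaged -2.75 instead of -1.77 over the 6 libraries, and the difference between genotypes was 0.53 again.

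Rpl3l was the sparsest of the 9 genes. It had 1.13, 0.400 and 0.721 FPKM in WT and 0.218, 0.866 and 1.67 FPKM in SKO, a mean below the 1 FPKM that was required for the test across all genes. Rpl3 had 25.7, 24.3 and 36.8 FPKM in WT and 14.2, 25.0 and 17.3 FPKM in SKO. Rpl3 was denser in all 6 libraries, by 10.4 to 65.4 times (log2 ratio of Rpl3l over Rpl3 -3.75 ± 0.574, exact sign-flip p = 0.03125, unadjusted, n = 6). The size of this ratio depends on the added FPKM, since it was -4.83 with 0.1 added and -2.27 with 5 added. The ratio was -4.09 ± 0.41 in WT and -3.41 ± 0.551 in SKO (difference 0.68, SE 0.40, exact permutation p = 0.2, unadjusted), with overlapping groups. Of 5 striated muscle markers only Actn2 had a row, at 0.438 to 2.72 FPKM.

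**Figure D2:**
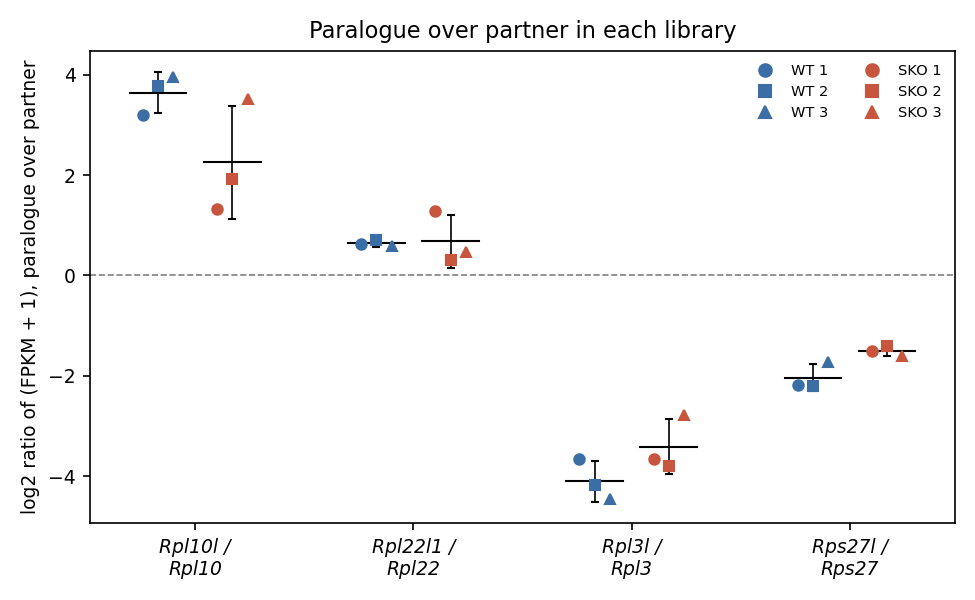
Log2 ratio of paralogue over partner, with 1 FPKM added to each, in each library; black lines and bars are group means and SD, and the dashed line marks equal density. The paralogue is denser in 2 pairs and the partner in 2 pairs in all 6 libraries, and the groups are apart for Rps27l over Rps27 alone.

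The genotypes were next compared gene by gene in a fit across the 15578 rows that averaged 1 FPKM or more (limma on log2(FPKM + 1), Benjamini-Hochberg adjustment). Among the members 8 had been tested and 0 passed at an adjusted p of 0.05, and 0 had an unadjusted p below 0.05. Over all 15578 tested rows 0.128% passed, and 1710 had an unadjusted p below 0.05. Rpl39l was the one tested member with SKO above WT in every library, a pattern that 10.9% of all tested rows showed. Its means were 172 ± 49.6 and 330 ± 103 FPKM, a 1.92-fold difference (log2 fold change 0.93, SE 0.46, limma adjusted p = 0.493). Rpl10, with 3.14 ± 0.629 and 8.07 ± 5.40 FPKM, had a log2 fold change of 0.95 (limma adjusted p = 0.507).

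For the remaining members the log2 fold changes were 0.68 for Rpl22l1, 0.63 for Rpl22, 0.69 for Rps27l and 0.16 for Rps27 on the positive side. They were -0.44 for Rpl10l and -0.61 for Rpl3 on the negative side, and the limma adjusted p-values of these 6 genes ran from 0.606 to 0.935. Single libraries moved several of these sizes by over 1.5 times. The log2 fold change of Rpl10l was -0.03 without SKO replicate 1, -0.20 without WT replicate 3 and -0.72 without SKO replicate 2. That of Rpl10 was 0.50 without SKO replicate 2 and 1.45 without SKO replicate 3. That of Rpl22 was 0.24 without SKO replicate 2, 0.35 without WT replicate 1 and 1.17 without SKO replicate 1, and that of Rpl22l1 was 0.38 without WT replicate 1. For Rps27l it was 0.36 without WT replicate 1, 0.41 without SKO replicate 2 and 1.06 without WT replicate 3, and for Rps27 it ran from -0.10 without WT replicate 1 to 0.43 without SKO replicate 1. The sign for Rps27 also turned with TMM-type scaling, to -0.013. The 8 tested members had a median of 0.65, against 0.42 for 71 other cytosolic ribosomal protein genes and 0.13 for all rows. Positive values were found for 6 of the 8, 54 of the 71 and 9251 of all 15578 rows. None of those 71 genes passed either (limma, 6 with an unadjusted p below 0.05). With a trimmed-mean (TMM-type) scaling of the libraries 1.02% of all rows passed, but again 0 of the 8 members. Unadjusted p-values below 0.05 were then found for 2 of them, Rpl39l (log2 fold change 0.76) and Rpl3 (-0.77), with limma adjusted p-values of 0.186 and 0.133. The same held for 11 of the 71 other ribosomal protein genes and 2433 of all 15578 rows, so such a count does not set the members apart.

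The whole set of ribosomal protein genes differed in level from library to library. The median log2(FPKM + 1) of the 71 other ribosomal protein genes was 4.35, 4.81 and 5.04 in WT and 4.50, 5.85 and 5.27 in SKO. Each member was therefore also expressed relative to this median within its library, a scale chosen after the values were seen. On this scale the genotypes did not overlap for 4 of the 8 tested members, against 20.1% of all tested rows and 23 of the 71 other ribosomal protein genes. These 4 were Rpl39l, higher in SKO, and Rpl10l, Rpl3 and Rps27, lower in SKO. Each had an exact permutation p of 0.1, which became 0.225 after Benjamini-Hochberg adjustment over the members with a row.

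Relative to the other ribosomal protein genes, Rpl10l stood at 0.98, 0.75 and 1.11 in WT and at -0.07, -0.06 and 0.23 in SKO. The testis form was thus above the median ribosomal protein gene in all WT libraries and near it in all SKO libraries, a difference of -0.91 (exact permutation p = 0.1, unadjusted, the smallest possible). Rpl3 stood at 0.39, -0.15 and 0.20 in WT and at -0.57, -1.15 and -1.08 in SKO, a difference of -1.08 with the same p. It had the lowest change of the 79 ribosomal protein genes ranked, and 5 of them lay below Rpl10l.

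Rpl39l went the other way on this scale. It stood at 2.51, 2.81 and 2.66 in WT and at 3.26, 2.83 and 3.23 in SKO, a difference of 0.45 (exact permutation p = 0.1, unadjusted). SKO replicate 2 and WT replicate 2 were only narrowly apart, and 8 of the 79 genes had a larger change. Rps27 had 1.58, 1.71 and 1.82 in WT and 1.55, 1.20 and 1.40 in SKO, a difference of -0.32. The mean shifts of the testis forms Rpl39l and Rpl10l thus had opposite signs. The changes of the other 71 genes ran from -1.05 (Rpl9) to 0.94 (Rpl32), so both lie within the range of that set.

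**Figure D3:**
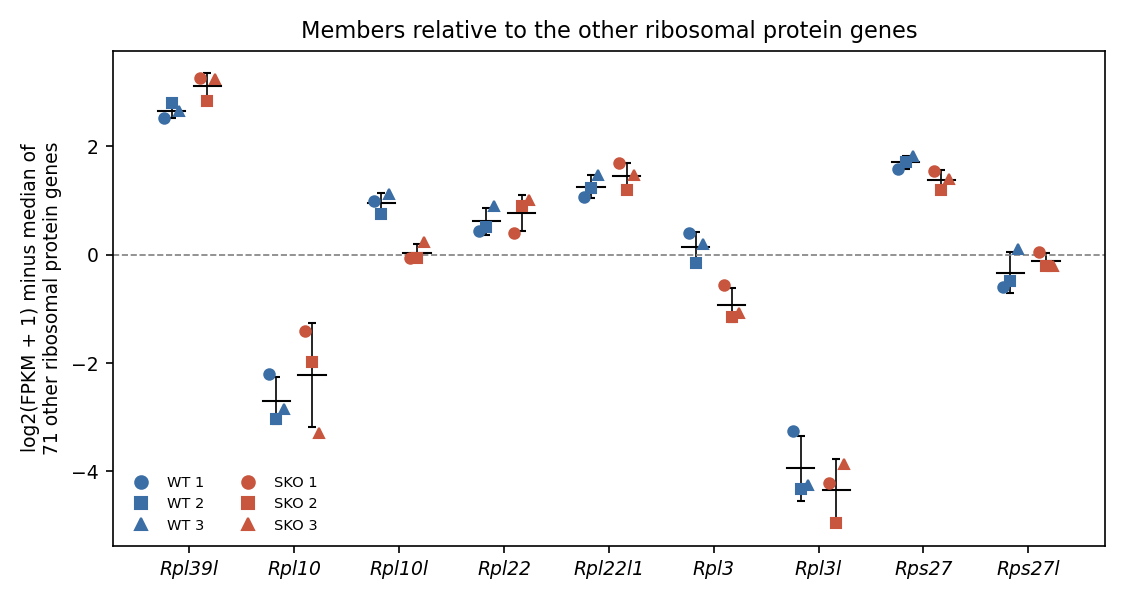
Log2(FPKM + 1) of each member minus the median of 71 other ribosomal protein genes in the same library; black lines and bars are group means and SD. Rpl10l and Rpl3 lie lower in all SKO libraries than in any WT library, and Rpl39l lies higher.

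**Figure D4:**
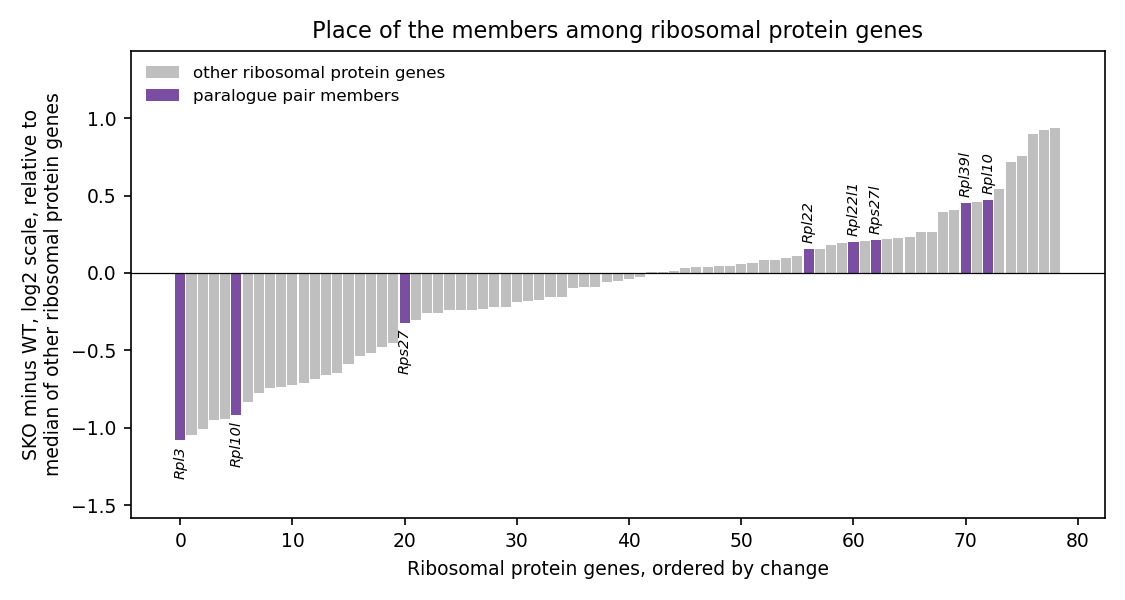
Mean SKO minus mean WT on the same relative log2 scale for 79 ribosomal protein genes, ordered by size; purple bars are the 8 tested members and grey bars the 71 others. Rpl3 is at the low end at -1.08, and Rpl39l and Rpl10 are among the 9 highest bars.

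Rpl3 also has copies that may share its reads. Its pseudogenes Rpl3-ps1 and Rpl3-ps2, both on the X chromosome, had 4.19 to 16.5 and 3.58 to 11.7 FPKM. Rpl3 was 2.23 to 3.39 times and 3.13 to 3.97 times as dense as these rows. Their means were lower in SKO, as that of Rpl3 was, at 11.7 ± 4.18 against 6.83 ± 2.64 FPKM for Rpl3-ps1 and 8.72 ± 2.62 against 5.29 ± 1.89 FPKM for Rpl3-ps2 (limma adjusted p = 0.572 and 0.579). With both added to Rpl3, the log2 ratio of Rpl3l over Rpl3 averaged -4.46 instead of -3.75. No member shared all 6 values with another row.

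Other ribosomal protein genes place these levels. The 2 densest of the 71, Rpl38 and Rps14, each had a mean of 184 FPKM over the 6 libraries, against 251 FPKM for Rpl39l. The paralogues Rpl36al, Rps4l and Rpl7l1 had 54.1 ± 14.9, 44.2 ± 22.9 and 7.85 ± 2.97 FPKM in WT and 86.5 ± 29.4, 63.6 ± 29.6 and 5.91 ± 2.28 FPKM in SKO. Of these 3 genes 0 passed (limma, lowest adjusted p = 0.628, 0 with an unadjusted p below 0.05). The X-linked small-subunit gene Rps4x had 0.495, 1.28 and 0.649 FPKM in WT and 1.22, 1.26 and 1.19 FPKM in SKO.

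Wdr48 and Diablo were among the genes whose pattern over the 6 libraries was most like that of Rpl10l (Pearson r of log2 values 0.996 and 0.993). For Rpl39l the closest were Elob, Nudt21 and Bsg (r 0.996, 0.995 and 0.995). These genes were drawn from 1530 protein-coding rows that averaged 20 FPKM or more, and 6 libraries that share a scaling give many high values. Bsg, the gene of basigin, a membrane protein of germ cells, had 109, 215 and 254 FPKM in WT and 296, 648 and 610 FPKM in SKO.

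Library depth and cell markers moved as follows. Absolute depth is unknown, and steps between values under 0.5 FPKM gave the other 5 libraries depths of 0.502 to 0.782 times that of SKO replicate 1. Protein-coding rows held 22.3% to 28.3% of the summed FPKM in WT and 18.2% to 32.9% in SKO. The 5 round spermatid markers all had rows and summed to 522 to 948 FPKM in WT and 681 to 1466 FPKM in SKO, against 39.9 to 67.4 and 54.2 to 95.6 FPKM for 5 spermatocyte markers. Sums of Leydig, peritubular and Sertoli markers were higher in every SKO library than in any WT library. The sum of the 4 globin genes was lower in every SKO library than in any WT library. The remaining lists with rows overlapped between genotypes. Elongating spermatid markers summed to 63.3 to 114 FPKM in WT and 66.5 to 92.4 FPKM in SKO. Spermatogonia markers with rows summed to 4.05 to 6.22 and 2.92 to 9.04 FPKM, and macrophage markers with rows to 0.638 to 5.98 and 0.837 to 3.48 FPKM. The 5 Leydig markers summed to 10.6 to 16.8 FPKM in WT and 51.8 to 105 FPKM in SKO. The 4 peritubular and matrix markers summed to 4.54 to 6.19 and 25.8 to 39.2 FPKM, and Dcn among them passed the limma test. Of 7 Sertoli markers 3 had rows and summed to 8.70 to 21.0 and 51.9 to 75.4 FPKM, while Sox9, Amh, Wt1 and Rhox5 are not analysed here. The 4 globin genes summed to 50.4 to 110 FPKM in WT and 15.2 to 42.0 FPKM in SKO. Rpl10, Rpl22, Rpl3 and Rps27 are also used by somatic cells, and the part of these cells in their levels was not tested. In SKO replicates 1, 2 and 3 the Leydig markers summed to 68.0, 51.8 and 105 FPKM and the peritubular markers to 33.0, 39.2 and 25.8 FPKM, beside 7.54, 13.7 and 2.96 FPKM of Rpl10. The Sertoli markers summed to 51.9, 63.2 and 75.4 FPKM in the same libraries. Rpl10 had the order of the peritubular sums, the reverse of the Leydig order, and neither for the Sertoli sums. An order of 3 libraries cannot show a relation, and none was tested. In bulk samples fewer cells of a type and less RNA per cell cannot be told apart, and without matched RNA values a footprint difference can come from the amount of mRNA or from its translation.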

How the data were processed

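Ribosome footprints were measured in 3 WT and 3 Eif5a SKO round spermatid libraries. The deposited FPKM were computed by the authors, 1 value per gene symbol and library. Per the submitters' processing notes, mm10 was the build, and STAR, Bowtie2, Cutadapt and Cufflinks were used, in roles not stated. The annotation and the handling of reads that map to several places are not given here. Ribosomal protein genes have many near-identical copies, so that handling can move their values.

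Columns called cKO were matched to the SKO samples by name and replicate number. A pseudocount of 1 FPKM was added and log2 taken. Rows averaging 1 FPKM or more were fitted with limma 3.58.1 in R 4.3.3 (eBayes with trend). P-values were two-sided and adjusted over 15578 rows by the Benjamini-Hochberg method, with a threshold of 0.05. Fold changes on this scale understate changes of low genes. Pair ratios were tested by exact permutation over libraries: 64 sign flips of 6 libraries, or 20 assignments of 3 against 3. The transcript length taken for each gene is not given here. A bias from it would stay in pair ratios, ranks and orders of levels, and the sign flips cannot detect it. Functions were tested on simulated data. Symbols, coordinates and promoters are from RefSeq (GRCm38.p6). Relative depth is the commonest ratio between low values of 2 libraries.

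Members, gene lists and tests were chosen with earlier results of these data known. All members, their named copies with a mean of at least 1 FPKM, X-linked ribosomal protein genes and the 2 densest others were named by rule; Rpl10-ps3, Rpl10-ps6, Rpl9 and Rpl32 were named after their values were seen. The likeness rule left out ribosomal protein genes and Gm, Rik and LOC names, and 1 gene it named is not reported here.

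Alternatives were pseudocounts of 0.1 and 5, no filter or a filter at 5 FPKM, TMM-type scaling (trimming 0.3 of ratios and 0.05 of levels at each end), quantile normalization, TPM rescaling, eBayes without trend or robust, the replicate number as a block, summing own copies, and leaving out each library. Same-numbered libraries did not deviate together (correlations 0.0926, 0.000158 and 0.0243), and the main fit left the replicate number out. These correlations cannot show whether same-numbered libraries were prepared together.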

Additional observations from a re-analysis of the deposited data

How the results depend on the processing

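No member passed the limma test over all rows in the main setting or in any of the 16 alternatives, and the lowest adjusted p was 0.0576, for Rpl3 with quantile normalization. The direction held in all 16 for 7 of the 8 tested members, but not the size: with 1 library left out the log2 fold change ran from 0.66 to 1.21 for Rpl39l, 0.50 to 1.45 for Rpl10, -0.72 to -0.03 for Rpl10l, 0.24 to 1.17 for Rpl22, 0.38 to 0.94 for Rpl22l1, -0.82 to -0.43 for Rpl3 and 0.36 to 1.06 for Rps27l. Rps27, at 0.16 in the main setting, changed sign to -0.013 with TMM-type scaling, -0.19 with quantile normalization, -0.039 with TPM rescaling, and with 1 library left out ran from -0.10 (without WT replicate 1) to 0.43, with -0.08 without SKO replicate 2. The number of rows called over the whole table was 20 and moved to 4 with a pseudocount of 5, 5 with no filter, 86 with a mean of at least 5 FPKM, 159 with TMM-type scaling, 446 with quantile normalization, 63 with robust eBayes, and 4 to 31 with 1 library left out. With the replicate block it was 5, and no call of a member or pair changed under the block, where 3 pairs allow no exact p below 0.25.

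The paralogue over partner log2 ratios kept their direction and exact p = 0.03125 under both pseudocounts, summed copies and TMM-type scaling. With 1 library left out they ran from 2.75 to 3.27 (Rpl10l), 0.53 to 0.73 (Rpl22l1), -3.94 to -3.61 (Rpl3l) and -1.84 to -1.68 (Rps27l), with an exact p of 0.0625, the smallest that 5 libraries allow. The differences between genotypes ran from -2.02 to -0.93 (Rpl10l), -0.26 to 0.24 (Rpl22l1), 0.37 to 0.91 (Rpl3l) and 0.45 to 0.69 (Rps27l). The number of reads behind values near 1 FPKM, those of Rpl3l and Rps4x among them, is unknown, and 3 libraries per group cannot give an exact p below 0.1.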

Other observations

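A further X-linked ribosomal protein gene with an autosomal relative was compared after its values were seen. Rps4l on chromosome 6, which RefSeq lists as a transcribed pseudogene, had 27.9, 34.4 and 70.4 FPKM in WT and 30.3, 87.1 and 73.5 FPKM in SKO. It exceeded the X-linked Rps4x in all 6 libraries, with log2 ratios of 3.82 to 5.44. The ratio was 4.55 ± 0.779 in WT and 4.73 ± 0.794 in SKO (SD, n = 3; exact permutation p = 1, unadjusted).

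Outside the ribosome, 7 X-linked genes with an autosomal testis paralogue were listed, and both genes were tested for 5 of them. The autosomal gene was denser in all 6 libraries for Cetn1 over Cetn2, a pair of centrin genes (log2 ratio 5.63 to 6.90), for the phosphoglycerate kinase genes Pgk2 over Pgk1 (0.75 to 2.67), for Rbmxl2 over Rbmx (0.93 to 1.87) and for Utp14b over Utp14a (0.12 to 1.23). Cstf2t exceeded Cstf2 in 1 of 6 libraries (-2.97 to 0.17). All these ratios have 1 FPKM added to each value, so their size depends on it where levels are low. The X-linked Pgk1, Utp14a and Rbmx had 1.02 to 2.31, 1.07 to 1.89 and 0.639 to 5.24 FPKM. The SKO minus WT difference was 0.94 for Pgk2, 0.85 for Cetn1 and -1.59 for Cstf2t (exact permutation p = 0.1 each, unadjusted, the smallest possible), so the direction differed between pairs. It was 0.18 for Rbmxl2 and 0.14 for Utp14b (exact permutation p = 0.7 and 0.8, unadjusted).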
